A study of Mus musculus with 3 samples.

Results

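Transcripts of 7 genes of the angiotensin and endothelin systems, namely Agt, Ace, Agtr1a, Edn1, Ece1, Ednra and Ednrb, were followed in mouse mpkDCT cells, a cell line of distal tubule origin. The genes were taken by name, with earlier results of these data known. All their non-control probes on the array were used: 12 probes of 56605, and 7 gene names of 37074. All cells carried a CRISPR-Cas9 knockout of Cyp27b1, the enzyme that turns 25-hydroxyvitamin D3 into the active hormone 1,25-dihydroxyvitamin D3. Cells were given 1,25(OH)2D3 (calcitriol, 1e-07 M), 25(OH)D3 (calcidiol, 1e-07 M) or vehicle for 24 h, in medium free of phenol red that held 2% charcoal-stripped serum. All 3 sample titles also carry the tag siCT, which the labels do not explain, so a treatment shared by all groups cannot be told from them. The description of the calcidiol sample writes 25(OH)2D3, whereas its treatment tag and the series text give 25(OH)D3, which is used here. Each of the 3 groups was 1 culture on 1 single-colour Agilent array, and the sources used here do not say whether the knockout cells were 1 clone. Without replicates no difference has a test, and the values compare these 3 arrays. Values after ± are the error that the scanner software assigns to a spot, which leaves out variation between cultures.

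Angiotensinogen, the product of Agt, is cut by renin, and angiotensin-converting enzyme, encoded by Ace, releases angiotensin II from the angiotensin I so formed. Angiotensin II acts mainly through the type 1 receptor, which mice encode in Agtr1a and Agtr1b, to constrict vessels and raise renal sodium reabsorption. Endothelin-1 is made as a precursor from Edn1, is released from it by endothelin-converting enzyme 1 (Ece1), and acts through the A and B receptors (Ednra and Ednrb). In the kidney it is made by tubule as well as vessel cells, and tubular endothelin acting on the B receptor lowers sodium reabsorption. In mice the vitamin D receptor is known to repress renin in juxtaglomerular cells.

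Of the 7 genes, 3 were detected and 4 were not. This is close to the share over all genes, of which 16684 of 37074 were detected on all 3 arrays by their brightest probe. Agt, Edn1 and Ece1 each had 1 probe well above background on all 3 arrays, and the other 9 of the 12 probes were well above background on none of the arrays. The ligand genes Agt and Edn1 stood apart in opposite directions with calcitriol: Agt was 2.96-fold lower and Edn1 2.65-fold higher than with vehicle. Ece1 differed by less than 2-fold from vehicle with either compound, and no transcript of the receptor genes Agtr1a, Ednra and Ednrb was detected. In the bulk RNA of a culture, a difference in the number of cells that express a gene and one in the RNA per cell cannot be told apart.

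The array reads each gene through 60-base probes, and the stretches below are the first 30 bases of those 5 probes that belong to the detected genes. They are shown because each detected gene is read from a single probe, and because the probes of Ece1 gave different answers.
Agt probe: cgtctccttggagactgcgctgaccgagaa
Edn1 probe: cagtaaaaatatgttcccgtatgtattgta
Ece1 detected probe: ttttttgtattattgtgttttgtgctactg
Ece1 other probe of the same transcript: tactcgcccaccaagaacgagatcgtgttt
Ece1 probe of another cDNA: cagtcacaccaaaacacctggcttaaatgt
The probes differ in base composition, with 55% G and C for Agt, 35% for Edn1, and 26.7%, 50% and 30% for the Ece1 probes in the order listed. In mm9 coordinates, as the scanner files place them, the Agt probe lies at chr8:127080661-127080720 on the minus strand and the Edn1 probe at chr13:42403101-42403160 on the plus strand. The Ece1 probes lie on the plus strand at chr4:137521065-137521124, chr4:137512407-137512466 and chr4:137472100-137472159, in the order listed. The exon or untranslated region that each probe covers was not looked up, since no annotation of mm9 was used here. None of the 12 probes lay within the outermost 6 rows or columns of the array, and none carried more than 1 spot.

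The arrays were alike in depth of detection. Spots called well above background made up 49.9% of the calcitriol array, 49.7% of the calcidiol array and 51.0% of the vehicle array, and no spot was saturated. The 3 arrays shared 1 slide and 1 scan, so neither separates the groups, whereas each array's place on the slide cannot be told apart from its group. Among probes printed 10 times, the median SD of the log2 difference between single spots was 0.11 for calcitriol minus vehicle, 0.10 for calcidiol minus vehicle and 0.12 for calcitriol minus calcidiol. Cyp24a1, the inactivating 24-hydroxylase induced through the vitamin D receptor, had processed signals of 5443 with calcitriol and 288 with calcidiol and was not well above background with vehicle (2.68). Vdr, the receptor gene, had signals of 1386 with calcitriol, 1379 with calcidiol and 1560 with vehicle. Cyp24a1 was at least 403-fold higher with calcitriol and at least 20.0-fold higher with calcidiol. The Cyp27b1 probe was well above background on none of the arrays (7.05 with calcitriol, 3.82 with calcidiol and 2.91 with vehicle), and where the knockout edit lies relative to this probe is unknown here, so this signal says nothing of the edit.

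The distal tubule label had little backing among its defining transcripts. Of 8 distal convoluted tubule markers, only the kinase gene Sgk1, whose spot sits at the very edge of the array, was detected on all 3 arrays. Sgk1 differed from vehicle by 1.41 with calcitriol and by 1.73 with calcidiol on the log2 scale. Pvalb was dim, and was well above background with calcitriol (20.1) and calcidiol (18.8) but not with vehicle (12.8). Its bounds were at least 1.48-fold and 1.30-fold higher. Slc12a3, the thiazide-sensitive cotransporter that defines this segment, was well above background on none of the arrays. Of 9 general tubule epithelium markers 4 were detected on all arrays, Cdh16, Pax8, Pax2 and Krt7, whereas Epcam and Cdh1 were not well above background on any. Of these 4, the keratin gene Krt7 differed from vehicle by 2.01 with calcitriol and by 0.83 with calcidiol on the log2 scale, over a dim vehicle signal of 23.8. Cdh16 differed by -0.49 and -0.36 (another probe -0.69 and 0.02), Pax8 by 0.02 and -0.04, and Pax2 by -0.27 and 0.05. The median of the 4 was -0.12 with calcitriol and 0.01 with calcidiol. The sample labels name the cells mpkDCT and the series text mDCT, and mpkDCT is used here.

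**Figure D1:**
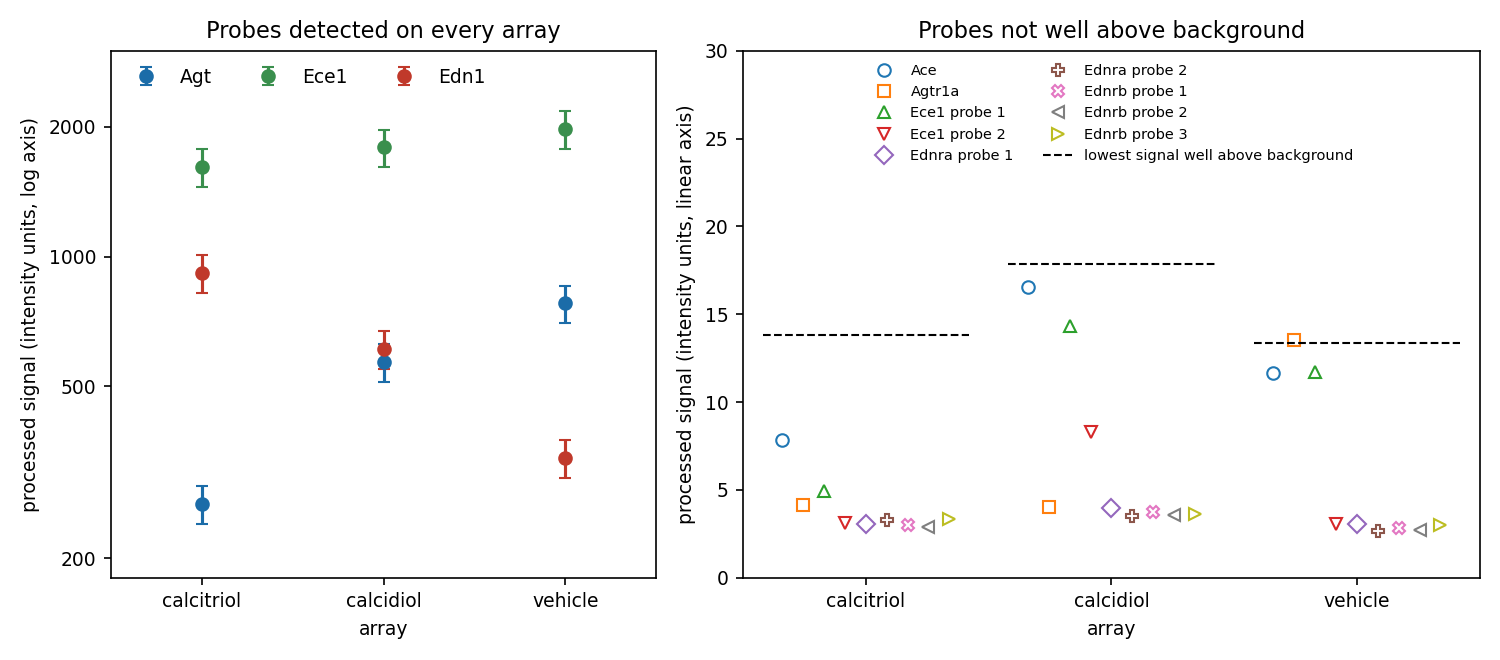
Processed signal of each probe of the 7 genes on the calcitriol, calcidiol and vehicle arrays, 1 array a group. The left panel (log axis) has the 3 probes detected on every array with the scanner's error as bars: Agt is lowest and Edn1 highest with calcitriol. The right panel (linear axis) has the 9 probes not well above background, numbered within a gene, and a dashed line at the lowest signal that was well above background on that array.

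Among the precursors, Agt encodes the substrate of renin. Its probe, which starts at base 1605 of transcript NM_007428, had processed signals of 266 ± 26.9 on the calcitriol array, 569 ± 57.0 on the calcidiol array and 779 ± 78.0 on the vehicle array. The error bars of the 3 arrays did not overlap, and calcidiol lay between calcitriol and vehicle. The raw spot brightness, before background subtraction, was 304 with calcitriol, 596 with calcidiol and 793 with vehicle, far above local backgrounds between 60 and 62. After each array was scaled to its 75th percentile, Agt differed by -1.57 ± 0.21 on the log2 scale between calcitriol and vehicle. That placed it at rank 52 from the bottom among 16962 genes measured on both arrays.

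Edn1 encodes the precursor of endothelin-1 and is the other precursor gene. Its probe, which starts at base 2086 of NM_010104, had processed signals of 917 ± 91.8 on the calcitriol array, 611 ± 61.2 on the calcidiol array and 342 ± 34.3 on the vehicle array. The order of the arrays was the reverse of that for Agt, again with error bars that did not overlap. The raw spot brightness was 930 with calcitriol, 646 with calcidiol and 395 with vehicle, over local backgrounds between 62 and 64. The scaled difference between calcitriol and vehicle was 1.41 ± 0.20 on the log2 scale, at rank 97 from the top of the same 16962 genes.

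These sizes are to be read against all genes measured. Between calcitriol and vehicle, 175 of the 16962 genes (1.03%) lay 2-fold or more above vehicle and 274 (1.62%) 2-fold or more below it, 449 in all (2.65%), and the central 90% of genes lay between -0.64 and 0.51 on the log2 scale. Of the 3 detected genes of the angiotensin and endothelin systems, 1 was at least 2-fold higher, Edn1, and 1 at least 2-fold lower, Agt. The genes were chosen with earlier results of these data known, so these counts beside the share over all genes are a description only. The median log2 difference was 0.01 over all genes. The median difference of the detected probes within 15 rows and columns of each spot was 0.06 around Agt (427 probes) and -0.01 around Edn1 (469 probes).

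With calcidiol both precursor genes differed from vehicle in the same directions by less than 2-fold. Agt was 1.48-fold lower with calcidiol, at -0.57 ± 0.20 on the log2 scale and rank 261 from the bottom of 16956 genes. Edn1 was 1.66-fold higher, at 0.73 ± 0.20 and rank 316 from the top. Both compounds were set against the same vehicle array, so these directions are not independent of those with calcitriol. In this comparison 147 of 16956 genes (0.867%) lay 2-fold or more above vehicle and 24 (0.142%) below it by as much, 171 in all (1.01%), and none of the 3 detected genes was among them. The central 90% of all genes lay between -0.38 and 0.44 on the log2 scale, which leaves both precursor genes outside it.

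The direct comparison of the compounds, which differ by the additional hydroxyl group of calcitriol, was made at equal dose and time over the 3 detected genes. Between calcitriol and calcidiol, Agt was lower with calcitriol by a log2 difference of -1.0 ± 0.21, which lies on the 2-fold threshold. It missed that threshold when arrays were centred on their median (-0.80). Edn1 was higher with calcitriol, by 1.60-fold or 0.68 ± 0.20 on the log2 scale. Ece1 differed by -0.06 ± 0.20, less than the scanner's error. For these genes each value is the difference of calcitriol from vehicle less that of calcidiol, so it is not an independent reading. Of 16806 genes measured on both arrays, calcitriol lay 2-fold or more above calcidiol for 78 (0.464%) and below it by as much for 235 (1.4%), 313 in all (1.86%). Of the 3 detected genes, 1 was among those lower with calcitriol, Agt. With 1 array a compound, no interval that covers cultures can be given for any of these differences.

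**Figure D2:**
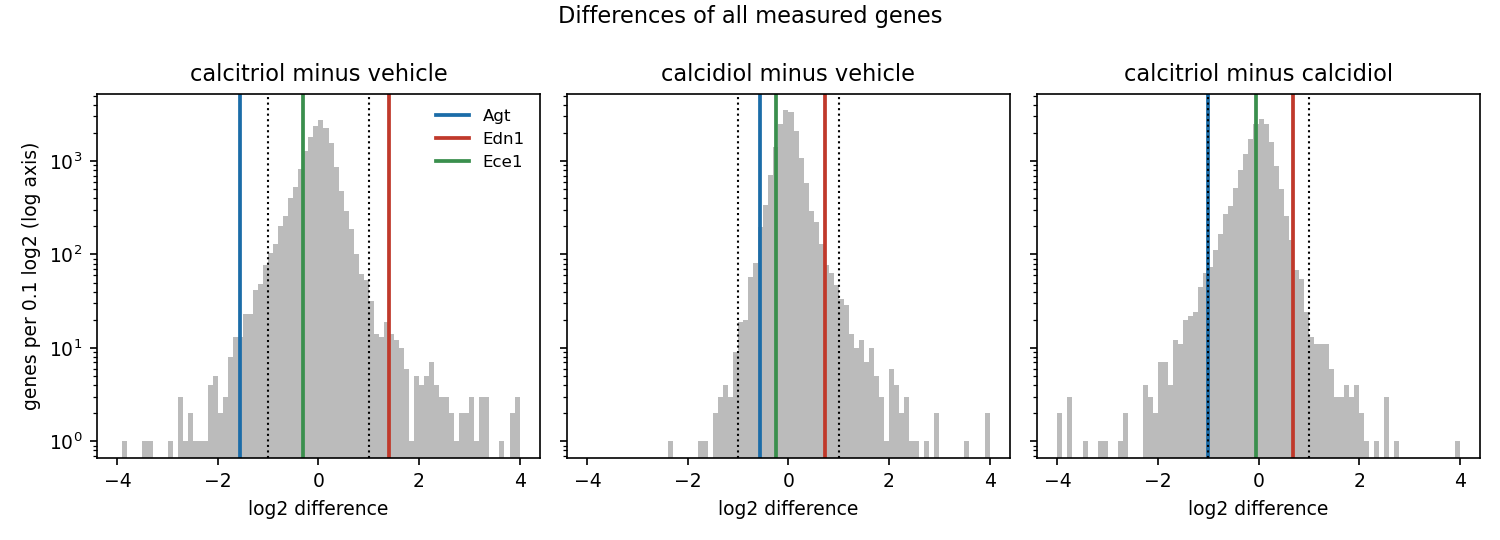
Histograms of the log2 difference of all measured genes by their brightest probe (log count axis, values beyond 4 drawn at 4) for calcitriol minus vehicle, calcidiol minus vehicle and calcitriol minus calcidiol. Coloured lines mark Agt, Edn1 and Ece1 and dotted lines 2-fold. Agt and Edn1 lie in opposite tails in each panel, at -1.57 and 1.41 for calcitriol minus vehicle. For the marked genes the last panel follows from the others, so the panels are not independent.

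Among the processing enzymes, Ece1, which converts big endothelin-1 to endothelin-1, was the 1 that was detected. Its brightest probe, starting at base 4736 of NM_199307, had processed signals of 1614 ± 161 with calcitriol, 1791 ± 179 with calcidiol and 1978 ± 198 with vehicle. Error bars of neighbouring arrays in that order overlapped. The log2 difference from vehicle was -0.31 ± 0.20 with calcitriol and -0.25 ± 0.20 with calcidiol, both within the central 90% of all genes. The other probe of the same transcript, starting at base 1884, gave 4.96 with calcitriol, 14.3 with calcidiol and 11.7 with vehicle and was well above background on none of the arrays. The probe of the cDNA AK047359 gave 3.10 with calcitriol, 8.31 with calcidiol and 3.09 with vehicle and was not well above background either. The Ece1 result thus rests on 1 of 3 probes.

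Ace, which releases angiotensin II and also degrades bradykinin, was represented by 1 probe on NM_009598 (chr11:105850398-105850457 on mm9). It gave 7.84 with calcitriol, 16.6 with calcidiol and 11.7 with vehicle, and was well above background on none of the arrays. The highest of these values, on the calcidiol array, lay below the lowest signal that was well above background there (17.9). No fold is given.

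The receptor genes were all below detection. The Agtr1a probe (NM_177322, chr13:30474638-30474697) gave 4.15 with calcitriol, 4.0 with calcidiol and 13.5 with vehicle. The scanner software did not call the vehicle value well above background, although the lowest called signal on that array was 13.4, so no fold is given. Ednra, the endothelin A receptor, had 2 probes with signals between 2.64 and 3.98 over the 3 arrays. Ednrb, the endothelin B receptor, had 3 probes, each on a different transcript, with signals between 2.70 and 3.74. The raw brightness of its probe on NM_001276296 was 73.1 with calcitriol, 74.3 with calcidiol and 73.7 with vehicle over local backgrounds between 61 and 64. All 5 endothelin receptor probes thus stayed close to the floor of the array. This limits what can be detected and does not show that the transcripts are absent.

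Other genes of both systems were read from lists of the pathway. Of 22 further angiotensin system genes, 10 were detected on all 3 arrays and 12 on none. The genes not detected on any array included both renin genes (Ren1 and Ren2), the angiotensin receptor genes Agtr1b, Agtr2 and Mas1, and the mineralocorticoid receptor gene Nr3c2. None of the 10 was 2-fold apart in any of the 3 comparisons, and their median log2 difference from vehicle was 0.04 with calcitriol and -0.03 with calcidiol, against 0.01 and -0.01 over all genes. The lowest of them was Anpep, an aminopeptidase that trims angiotensin III, with signals of 54.2 with calcitriol, 68.3 with calcidiol and 100.3 with vehicle. It differed from vehicle by -0.90 with calcitriol and -0.66 with calcidiol on the log2 scale. The highest with calcitriol was Enpep, an aminopeptidase that cuts angiotensin II, at 0.15. The highest with calcidiol was Mme, which encodes neprilysin, a protease that degrades angiotensins and endothelins, at 0.25, although 3 other Mme probes averaged -0.36. In the direct comparison Mme was lowest of the 10, at -0.49 (other probes -0.18), and Enpep was highest, at 0.33.

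Of 7 further endothelin system genes, Ece2, a relative of Ece1, was the 1 detected on all 3 arrays. It differed from vehicle by 0.28 with calcitriol and 0.25 with calcidiol on the log2 scale. These values rest on 1 of 3 Ece2 probes, whose spot lies within the outermost 6 rows and columns of the array. Edn2, which encodes endothelin-2, was well above background only with vehicle, with signals of 6.29 with calcitriol, 14.8 with calcidiol and 34.1 with vehicle. It was at least 2.5-fold lower with calcitriol and at least 2.06-fold lower with calcidiol. Both bounds rest on 1 dim vehicle spot. Edn3, the gene for endothelin-3, was well above background on none of the arrays (3.05 with calcitriol, 3.73 with calcidiol and 2.84 with vehicle).

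Genes that couple such receptors to the cell were mostly detected, although Agtr1a, Agtr1b, Agtr2, Ednra and Ednrb were not. Of 15 genes for G proteins, phospholipases C beta, arrestins, RGS proteins and protein kinases C, 13 were detected on all 3 arrays and none was 2-fold apart in any comparison. Their median log2 difference from vehicle was -0.23 with calcitriol and -0.03 with calcidiol. Rgs2, a brake on signalling through Gq proteins, was lowest against vehicle with both compounds, at -0.49 with calcitriol and -0.32 with calcidiol. The G protein gene Gna11 was highest with calcitriol, at 0.13. The phospholipase gene Plcb1 was highest with calcidiol, at 0.31, although 2 other probes of it averaged -0.13. In the direct comparison Plcb1 was lowest, at -0.75 (other probes -0.20), and Plcb3 was highest, at 0.04.

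Of 10 kinin, natriuretic peptide and nitric oxide genes, 4 were detected on all 3 arrays, and Npr3, the natriuretic peptide clearance receptor, was at least 2-fold higher in each comparison. It had signals of 2911 with calcitriol, 1268 with calcidiol and 280 with vehicle, and differed from vehicle by 3.36 and 2.07 on the log2 scale. The direct difference between calcitriol and calcidiol was 1.29. Another Npr3 probe gave 0.88 between calcitriol and vehicle, so its probes disagree on the size. The remaining Npr3 probe gave 1.52 between calcitriol and calcidiol. The calcidiol minus vehicle value rests on the brightest probe alone. Npr2, a guanylyl cyclase receptor, was lowest in each comparison, at -0.69 with calcitriol and -0.22 with calcidiol against vehicle and -0.47 between the compounds, and another Npr2 probe gave -0.77, -0.19 and -0.57 in these comparisons. Over all 54 pathway genes, 28 were measured, of which 1, Npr3 each time, was at least 2-fold higher and none lower in each comparison. Over all genes, 1.03% were as much higher and 1.62% lower for calcitriol minus vehicle. The shares were 0.867% and 0.142% for calcidiol minus vehicle, and 0.464% and 1.4% for calcitriol minus calcidiol. The other 27 measured pathway genes lay within 2-fold in each comparison, whereas 3 genes detected with vehicle alone (Edn2, Ecel1 and Nos2) have only bounds, which for Ecel1 and Nos2 stay under 2-fold.

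**Figure D3:**
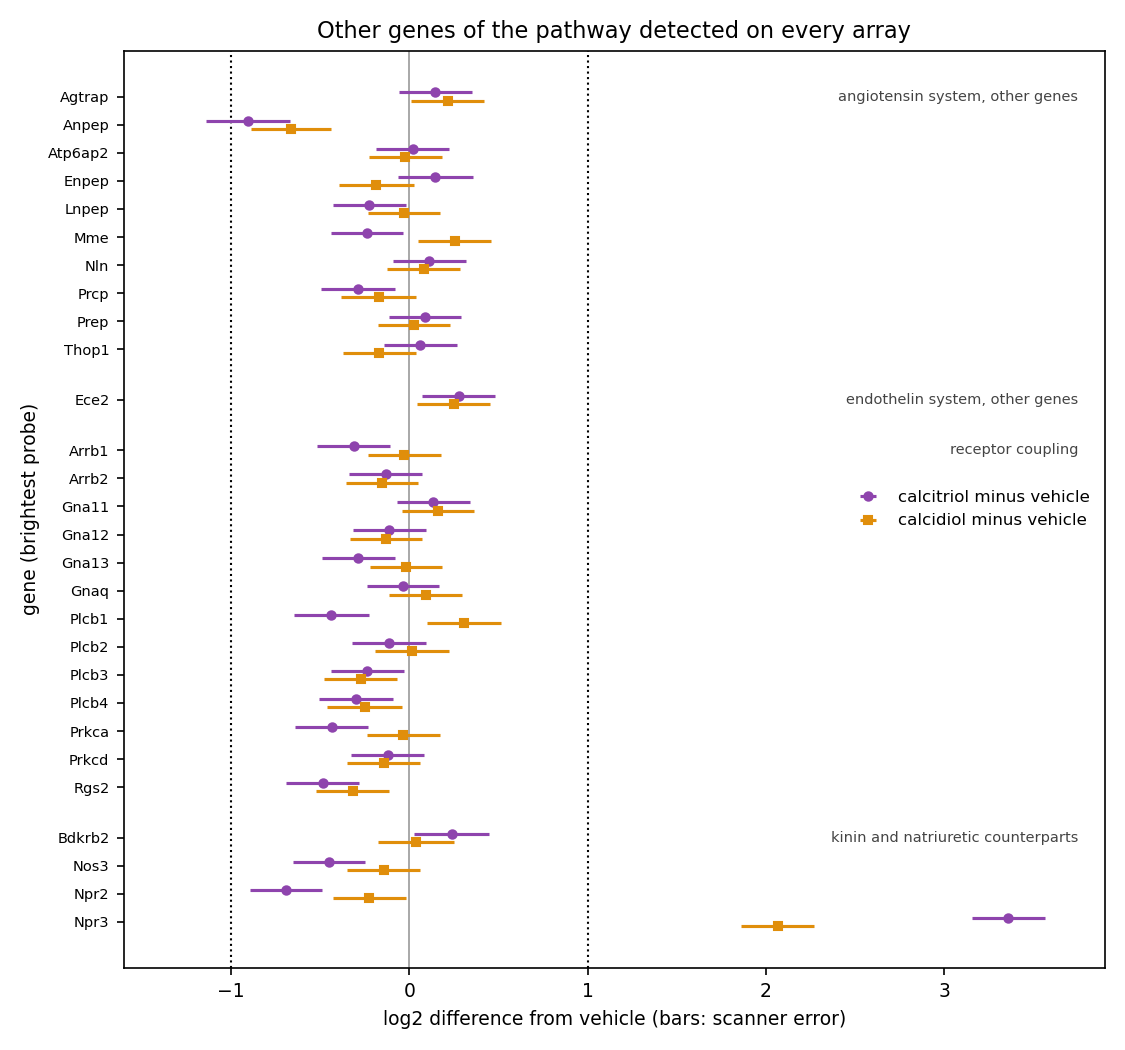
Log2 difference from vehicle of the 28 pathway genes detected on every array, by brightest probe, for calcitriol (circles) and calcidiol (squares). Bars are the scanner's error and dotted lines mark 2-fold. All points but those of Npr3, at 3.36 with calcitriol and 2.07 with calcidiol, lie between the dotted lines.

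Markers of other cell types that make or use these peptides were set beside the results. Of 6 endothelial markers, 5 were well above background on none of the arrays, Pecam1 and Cdh5 among them. The summed signal of the 6 was 85.3 with calcitriol, 130 with calcidiol and 140 with vehicle, and Kdr, the 1 detected marker, gave 66.4 with calcitriol, 102 with calcidiol and 118 with vehicle of it. The sum was lowest on the array where Edn1 was highest, but most of it was Kdr, read from 1 of 3 probes. Whether the sum follows the number of endothelial cells was not tested. Of 9 smooth muscle, mesangial and fibroblast markers, 5 were detected on all arrays, and the summed signal of the list was 18669 with calcitriol, 19489 with calcidiol and 17702 with vehicle. Pdgfrb and Pdgfra were well above background on none of the arrays. Among the 5 detected, Col1a1 (collagen, log2 difference -1.26) and Tagln (actin-binding protein, -0.92) were lower with calcitriol than with vehicle, as Agt was. By their brightest probes Acta2 (0.10), Vim (0.08) and Myh11 (0.18) were not lower, and the median of the list was 0.08. The spot used for Acta2 lies within the outermost 6 rows and columns of the array, and another Acta2 probe gave -1.08, so its probes disagree. Of 5 proximal tubule markers, 3 were detected on all arrays, with a summed signal of the list of 5988 with calcitriol, 4825 with calcidiol and 3269 with vehicle. Of these 3, the endocytic receptor gene Lrp2 had signals of 5090 with calcitriol, 3812 with calcidiol and 1923 with vehicle, in the order of Edn1. Most of the summed signal of the list was this 1 probe. It differed from vehicle by 1.39 with calcitriol and 0.88 with calcidiol on the log2 scale. The 4 other Lrp2 probes averaged 0.62 and 0.23, so the size depends on the probe. The water channel gene Aqp1 differed by -0.67 with calcitriol and -0.61 with calcidiol, and Cubn by -0.17 and -0.02. Of 8 collecting duct markers, 3 were detected on all arrays, Aqp2, Scnn1a and Gata3, and the summed signal of the list was 481 with calcitriol, 515 with calcidiol and 517 with vehicle. With calcitriol and calcidiol against vehicle, Aqp2 differed by -0.47 and -0.46, Gata3 by -0.31 and -0.17, and Scnn1a by 0.10 and 0.03. Another Scnn1a probe gave 1.65 and 0.73, so its probes disagree. None of 3 thick ascending limb markers was detected. Of 6 leukocyte markers on the array, 4 were detected on all arrays, Ptprc and Csf1r among them, and Adgre1 was well above background on none. The summed signal of the list was 2803 with calcitriol, 3561 with calcidiol and 3172 with vehicle. Ptprc was read from 1 of 7 probes, and the Csf1r spot lies within the outermost 6 rows and columns of the array. The part of such cells in the Agt and Edn1 differences was not tested.

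The genes with profiles most like those of Agt and Edn1 were found as the 3 nearest by Euclidean distance between log2 profiles centred on their mean over the 3 arrays, among 12394 named genes detected on all of them. For Agt these were Gper1, a membrane estrogen receptor (distance 0.085, signals of 420, 929 and 1336 with calcitriol, calcidiol and vehicle), the cell-cycle inhibitor gene Cdkn1a (0.089) and the potassium channel gene Kcnc2 (0.096). For Edn1 they were Tg, which encodes thyroglobulin (0.017, signals of 43.5, 29.4 and 16.3 with calcitriol, calcidiol and vehicle), Fam43a (0.051) and the homeobox gene Irx3 (0.057). The Tg signal with vehicle was near the lowest well above background there (13.4). With 3 arrays a profile holds little information, and these names are a description.

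The regions before the starts of both precursor genes are shown because these genes lay on opposite sides of vehicle with calcitriol. RefSeq windows were found for 6 of the 7 genes (10 windows, build GRCm38.p6), and the 250 bases before each start were searched on both strands for 4 hexamers that vitamin D receptor dimers can bind in pairs, and for the TATA box TATAAA. The hexamer AGGTCA occurs in 14.0% of all 32851 windows of this length, the hexamer AGTTCA in 11.8%, the hexamer GGGTCA in 11.6% and the hexamer GGTTCA in 8.85%. Capitals mark the matches. The Agt window lies at chr8:124569707-124569956 on the minus strand and the Edn1 window at chr13:42301226-42301475 on the plus strand.
Agt upstream: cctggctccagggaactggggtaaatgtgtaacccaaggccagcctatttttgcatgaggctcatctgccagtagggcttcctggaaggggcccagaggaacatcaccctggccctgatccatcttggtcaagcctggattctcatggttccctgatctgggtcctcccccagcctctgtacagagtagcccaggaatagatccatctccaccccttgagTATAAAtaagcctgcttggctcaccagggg
Edn1 upstream: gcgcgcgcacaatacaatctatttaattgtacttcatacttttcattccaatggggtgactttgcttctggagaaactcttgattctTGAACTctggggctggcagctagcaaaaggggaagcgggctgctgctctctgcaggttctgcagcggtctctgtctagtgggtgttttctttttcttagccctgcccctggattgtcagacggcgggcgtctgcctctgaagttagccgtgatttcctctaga
The Agt window holds TATAAA from 30 bases before the start and none of the 4 hexamers. The Edn1 window holds 1 hexamer, AGTTCA on the opposite strand, from 163 bases before the start, and no TATAAA. At least 1 of the 4 hexamers occurs in 38.6% of all windows and TATAAA in 12.4%, against 3 and 2 of the 10 windows of these genes. The paired arrangement DR3, in which hexamers follow each other on 1 strand with 3 bases between them, occurs in 0.0396% of all windows and in 0 of the 10. A match or its lack describes the letters of a window and not a bound site.

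**Figure D4:**
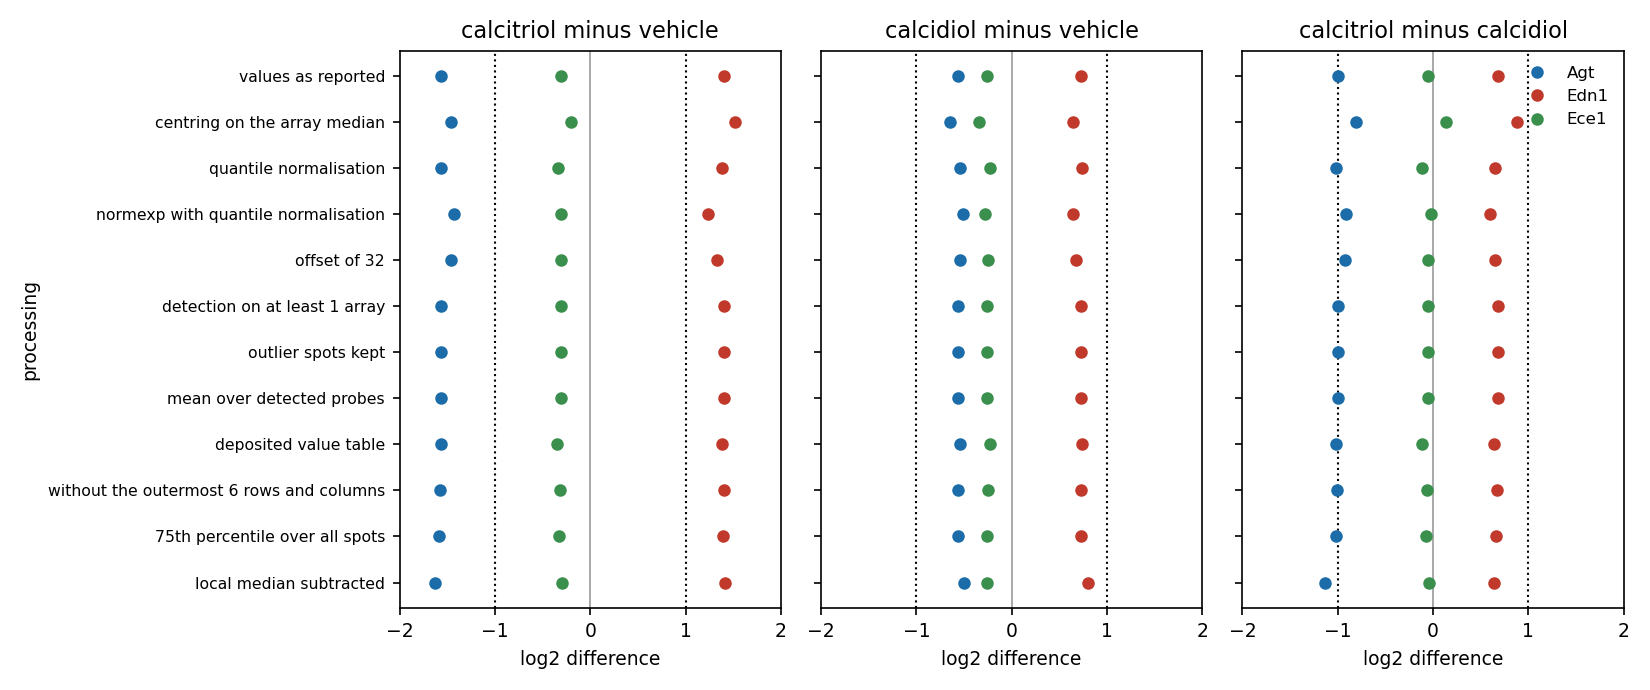
Log2 difference of Agt, Edn1 and Ece1 in the 3 comparisons (panels) under each way of processing the arrays (rows), with dotted lines at 2-fold. Agt stays left of -1 and Edn1 right of 1 for calcitriol minus vehicle in every row, and Agt moves across -1 for calcitriol minus calcidiol. The rows for detection on at least 1 array, outlier spots kept and mean over detected probes repeat the values as reported.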

How the data were processed

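The authors deposited 1 Agilent scanner file per sample, and its linear spot intensity was used. Background subtraction and detrending were done in Feature Extraction 10.7.1.1, with probe positions on mm9, per the file headers. Version 9.5.1.1 stands in the submitters' processing notes. The deposited value table, also intensity (log2 median 3.71 in each column), was an alternative only. How it was normalised is not stated.

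Control and outlier spots were left out, spots of a probe were averaged, and log2 signals were scaled to each array's 75th percentile over probes (252 for calcitriol, 269 for calcidiol and 249 for vehicle). A difference needed both arrays well above background. With detection on 1 array a bound was given, against the higher of the lowest called signal and the dim probe's own. Genes other than the 7 were read from their brightest probe. Precision is limited by 1 array a group, so a 2-fold threshold describes size and no test was run. Counting was tested on simulated data. The members and lists were chosen with earlier results of these data known. Named pathway genes were those 2-fold apart and the highest and lowest of each list. Alternatives were median centring, quantile normalisation, normexp, an offset of 32, other detection and probe rules, outlier spots kept, the value table, no array edge and thresholds of 1.5-fold and 3-fold. Scaling over all spots and subtracting the median of spots nearby were added after the data were seen. Software was Python 3.11.15 (numpy 2.4.6, pandas 2.3.3, matplotlib 3.10.9) and R 4.3.3 (limma 3.58.1).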

Additional observations from a re-analysis of the deposited data

How the results depend on the processing

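Under 11 alternatives of the signal the log2 difference between calcitriol and vehicle ranged from -1.62 to -1.43 for Agt and from 1.24 to 1.52 for Edn1, past 2-fold in each. With calcidiol against vehicle they ranged from -0.65 to -0.50 and from 0.64 to 0.80. Detection on at least 1 array, outlier spots kept and the mean over detected probes could not move these values. Each gene had 1 detected probe with 1 spot, which was detected on every array and was no outlier. For calcitriol against calcidiol Agt ranged from -1.13 to -0.80, and the count of detected members at least 2-fold lower fell to 0, against 1 as reported, with centring on the median, normexp with quantile normalisation, an offset of 32 and a 3-fold threshold. The 3-fold threshold also gave 0 higher and 0 lower with calcitriol against vehicle, and the 1.5-fold threshold gave 1 higher with calcidiol against vehicle and 1 higher with calcitriol against calcidiol, where 0 were reported. Ece1 between the compounds changed sign, from -0.11 to 0.14, within the scanner's error.

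Counts over all genes depended on the treatment of dim signals. Genes at least 2-fold higher and lower with calcitriol against vehicle, 175 and 274 as reported, were 96 and 111 with normexp, 117 and 138 with an offset of 32, and 376 and 628 when 1 detected array sufficed. With calcidiol against vehicle, 147 and 24 became 80 and 4, 79 and 7, and 461 and 232, and between the compounds 78 and 235 became 34 and 138, 49 and 112, and 233 and 636, under the same alternatives in that order. Median centring gave 42 lower with calcidiol against vehicle and 151 higher and 127 lower between the compounds. At 1.5-fold the higher and lower counts of the 3 comparisons were 611 and 1017, 486 and 227, and 401 and 901, and at 3-fold 73 and 49, 42 and 3, and 23 and 52. Median centring shifted the all-gene median to 0.12, -0.10 and 0.21 in the 3 comparisons, and higher genes then made up 54.5%, 73.2% and 54.3% of those 2-fold apart, against 39.0%, 86.0% and 24.9% as reported. No paired analysis was possible because each group had 1 array. Dim probes, among them 9 of the 12 described, are limited by signal over background.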
